A study of Mus musculus with 10 samples.

Results

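The clustered protocadherins are cell-surface adhesion proteins of the cadherin superfamily, encoded in mouse by 3 neighbouring gene arrays named alpha, beta and gamma. Their signals were read in mouse oocytes at the germinal vesicle (GV) stage, the stage of arrest before meiotic maturation, with and without the chromatin protein CTCF. Members were all array probe sets whose gene symbol in the platform annotation, alone or among several, was Pcdha, Pcdhb or Pcdhg followed by a member name. The rule found 37 genes of the 19324 named on the array, read by 35 probe sets of the 45037 that remained once the array's control probe sets were set aside. The alpha cluster had 6 of them, the beta cluster 28 and the gamma cluster 1. The groups were 5 arrays of wild type oocytes and 5 of CTCF-depleted oocytes, each array made from total RNA that was amplified and biotin-labelled for small samples. The labels give no strain, age, method of depletion or number of oocytes for either group. Nor do they say whether each replicate came from animals of its own, so p-values here rest on spread that may be technical only.

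In the alpha and gamma clusters, each variable first exon has its own promoter and is spliced to a set of constant exons shared by the whole cluster, whereas each beta gene is a single coding exon. In neurons, each cell uses a few of these promoters, and the resulting combination of proteins on its surface serves self-recognition through homophilic binding. CTCF binds at most of the variable promoters and at the clusters' enhancers, and together with cohesin it brings enhancer and promoter into contact, so these genes are a well-known set of CTCF targets in the nervous system. GV oocytes are a different setting: as they reach full size, their chromatin gathers around the nucleolus and transcription falls silent.

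What each probe set can tell differed between the clusters. None of the 6 alpha probe sets named a single gene. Of these, 3 carried 14 alpha symbols and 3 carried 9, so the alpha genes could not be told apart and each value may combine several promoters. What each probe set matches was not checked, and the 3 with 14 symbols differed, with wild type means of 16.1, 8.41 and 2.71. The 28 beta probe sets each named 1 gene and between them covered all 22 beta genes of the RefSeq annotation, with 5 genes read by more than 1 probe set. The gamma cluster was represented by Pcdhgc4, a C-type gamma isoform, of 22 gamma genes in RefSeq. The rule found no other gamma gene in the platform annotation, so the others were not analysed here.

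The depletion was visible in the Ctcf transcript itself. The probe set 1418330_at fell from a signal of 766 ± 74.1 (SD, n = 5) in wild type oocytes to 20.7 ± 22.7 (n = 5), which is 2.71% of wild type, and 1449042_at fell from 1001 ± 76.0 to 36.3 ± 33.7, or 3.62%. The exact two-sided permutation p was 0.00794 for each, the smallest that 5 arrays against 5 allow. Depleted replicate 5 kept the most, at 61.1 and 95.8, while the other 4 depleted arrays were at or below 14.2 and 29.3. All 13 oocyte markers looked for, such as those of the zona pellucida, were above the control level on all 10 arrays, and none was called changed. Of 11 granulosa and cumulus cell genes measured, 2 rose (Fshr, from 23.2 to 47.8, and Nr5a2) and none was called lower. Over all tested probe sets, 12.6% were called. The log2 differences of 8 of the 11 were negative, with a list median of -0.10; Gja1 was at -0.72 and Kitl, with every depleted array below every wild type array, at -0.45 (adjusted p = 0.280 and 0.0628). Their summed signal was 918 to 2428 on wild type arrays and 896 to 1265 on depleted arrays, the highest being wild type replicate 2, in which the gap junction gene Gja1 stood at 1017 against 154 to 210 on the other wild type arrays. No gene of the theca and stroma, blood, immune and endothelial, or neural lists was called. These lists were not silent, with 1 of 8, 3 of 8 and 4 of 7 measured genes, in that order, above the control level on all 10 arrays. Col1a1, Ptprc, Snap25 and Nefl were above it on no array. The part of these cells in the results was not tested.

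Most clustered protocadherin probe sets gave little or no signal in either group. MAS5 signals are in arbitrary units scaled to a common mean, and as a floor each array was given its control level, the highest signal among 27 probe sets for Bacillus genes that mouse RNA does not contain. That level was 6.15 to 10.2 on wild type arrays and 4.75 to 10.9 on depleted arrays. The highest signal of any member was 22.2. On none of the 10 arrays did 17 of the 35 members (48.6%) exceed the control level, against 27.0% of all probe sets, and another 11 members exceeded it on a single array. Only 3 members (8.57%) were above it on all 5 wild type arrays, against 45.7% of all probe sets. These were 1 alpha probe set and the beta probe sets of Pcdhb15 and Pcdhb17, and of them the alpha probe set alone was also above it on all 5 depleted arrays.

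**Figure D1:**
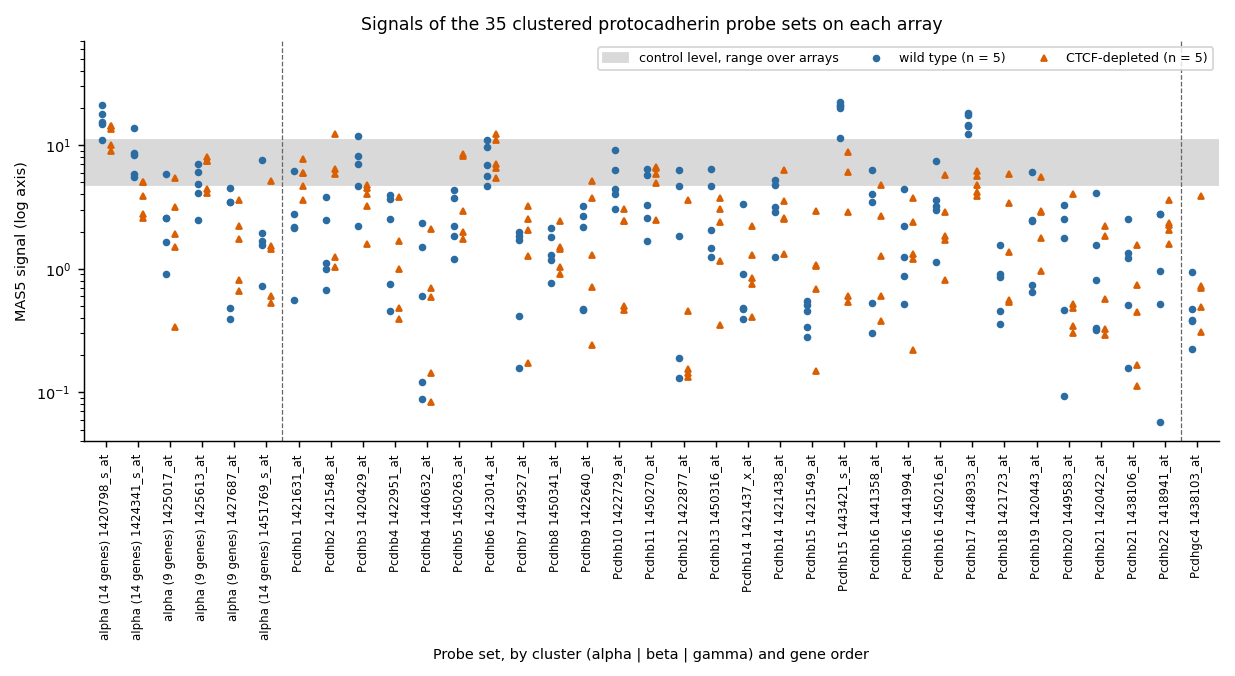
MAS5 signal (log axis, arbitrary units) of each of the 35 clustered protocadherin probe sets on each wild type (circles, n = 5) and CTCF-depleted array (triangles, n = 5), ordered by cluster and gene. The grey band spans the lowest to the highest control level, 4.75 to 10.9. Nearly all points lie within or under it, and the Pcdhb15 probe set 1443421_s_at and Pcdhb17 stand above it in wild type alone.

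The number of members above the control level was 4, 6, 8, 3 and 3 on the wild type arrays and 1, 1, 2, 5 and 11 on the depleted arrays, in replicate order. The ranges overlapped, with medians of 4 and 2. Depleted replicate 5, with 11 members, had the lowest control level of all arrays (4.75), and with each array's own 40th percentile as the level its number was 8. By that second measure the wild type arrays had 8, 6, 9, 5 and 6 members above it and the depleted arrays 2, 4, 4, 9 and 8. Where a member lay at the control level in wild type oocytes, a fall could not be read.

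Of the 35 members, 6 (17.1%) were bright enough on average to be tested, against 60% of all probe sets, and 2 of these 6 fell while none rose. Over all 27022 probe sets tested with limma, 12.6% were called at an adjusted p under 0.05, 7.12% lower and 5.48% higher. When all 45037 probe sets were tested without the filter on dim signal, the same 2 of 35 members (5.71%) were called lower, against 3.61% of all, and none higher. At an unadjusted p under 0.05, that fit had 4 members lower and 1 higher, where 9.85% of all probe sets were lower and 7.56% higher, so 4 of 35 is close to the background. Both called members lay in the beta cluster, and both had a mean in depleted oocytes under the filter's limit, so they passed it through their wild type signal. A member that is silent in both groups could not be called, and the count describes those with signal.

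Pcdhb17 fell to the control level. Like all beta genes it encodes a complete transmembrane protocadherin in 1 exon, with its own promoter. Its probe set 1448933_at gave 14.4, 17.5, 12.4, 14.4 and 18.3 on the 5 wild type arrays and 3.91, 4.78, 6.16, 5.65 and 4.21 on the 5 depleted arrays. Every depleted array was lower than every wild type array, and the signal was above the control level on all 5 wild type arrays and on no depleted array. The means were 15.4 ± 2.44 and 4.94 ± 0.950 (SD, n = 5 each). The log2 change, taken on log2(signal + 2.47), was -1.27 ± 0.21 (SE, adjusted p = 0.000634, limma). In the limma fit without the filter, the SE was 0.23 and the adjusted p 0.00261. Since the depleted signal was only bounded by the control level, the fall was at least 1.97-fold. That bound sets the mean log2 signal of the wild type arrays against the mean over depleted arrays of the control level.

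Of the probe sets for Pcdhb15, another single-exon beta gene, 1 fell and the other had no signal above the control level. The probe set 1443421_s_at gave 22.2, 11.5, 20.1, 20.8 and 21.2 on wild type arrays and 6.03, 0.537, 0.598, 8.83 and 2.88 on depleted arrays. The groups did not overlap, and all 5 wild type arrays but a single depleted array, replicate 4, were above the control level. The means were 19.1 ± 4.36 and 3.78 ± 3.61 (SD, n = 5 each), with a log2 change of -1.96 ± 0.35 (adjusted p = 0.00112, limma). Without the filter, the SE was 0.37 and the limma adjusted p 0.00372. Wild type replicate 2, whose granulosa genes were highest, had the lowest wild type value, and without it the change was -2.11. As most depleted signals were under the control level, the size of the fall is not well fixed. With every signal under that level first raised to it, the change was -0.99 ± 0.20 for Pcdhb15 and -0.79 ± 0.18 for Pcdhb17, both still called; the difference between the falls was not tested.

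The second probe set for Pcdhb15 did not show this fall. 1421549_at gave 0.281 to 0.543 on wild type arrays and 0.149 to 2.91 on depleted arrays, and it exceeded the control level on no array. The probe sets of this gene thus disagree on whether it has signal at all in wild type oocytes. By the array maker's naming, the suffix _s_at marks a probe set that may match several related transcripts, so the Pcdhb15 value could include another beta gene. Pcdhb16, the gene between Pcdhb15 and Pcdhb17 in RefSeq order, was read by 3 probe sets, which were above the control level on at most 1 array, with log2 differences of -0.24, -0.02 and -0.27.

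**Figure D2:**
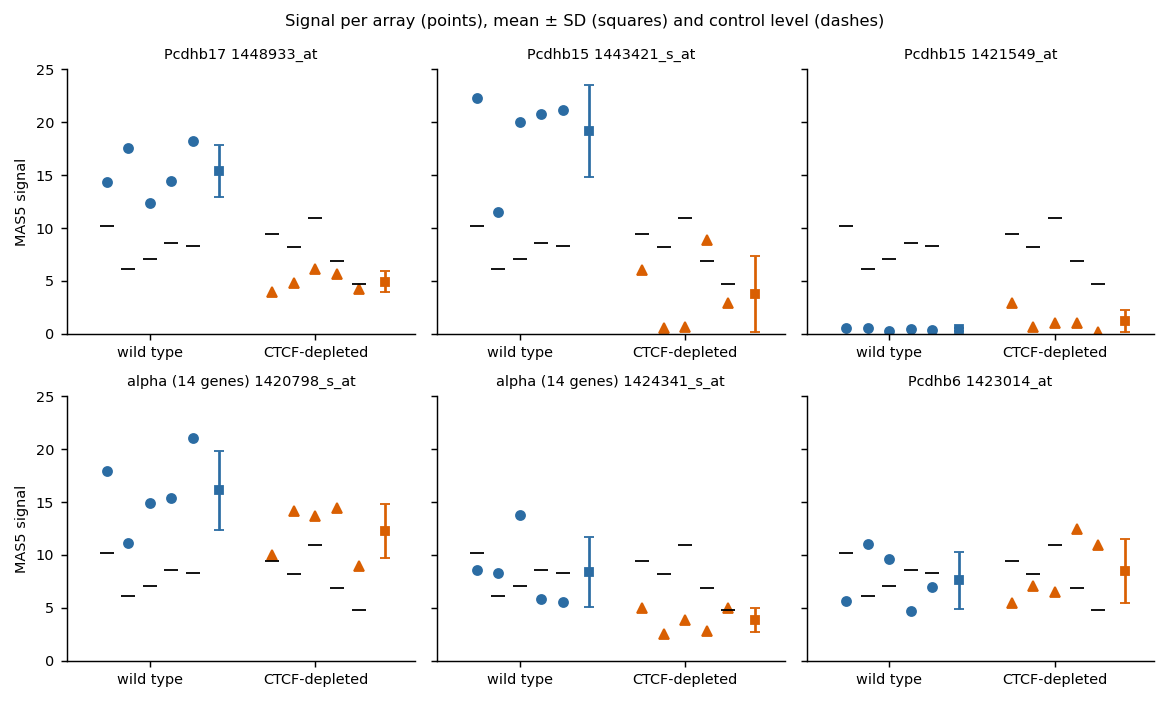
MAS5 signal (linear axis, arbitrary units) on each array for 6 probe sets of clustered protocadherins; points are arrays, squares with bars are means ± SD (n = 5 per group) and dashes mark each array's control level. Pcdhb17 and the Pcdhb15 probe set 1443421_s_at separate the groups, the other Pcdhb15 probe set lies near 0, and the alpha probe set 1420798_s_at is above the dashes on all 10 arrays.

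Of the remaining beta probe sets, that of Pcdhb6 was the only one bright enough to be tested. Its probe set 1423014_at gave 5.63, 11.1, 9.61, 4.68 and 6.96 on wild type arrays and 5.45, 7.04, 6.49, 12.4 and 10.97 on depleted arrays. The groups overlapped along their whole range, with means of 7.59 ± 2.69 and 8.48 ± 3.04 and a log2 difference of 0.12 ± 0.27 (adjusted p = 0.836). Pcdhb3, at 1420429_at, gave 11.9, 7.04, 8.17, 2.23 and 4.71 on wild type arrays and 3.22, 1.59, 4.51, 4.75 and 4.06 on depleted arrays. It exceeded the control level on 3 wild type arrays and no depleted array. The groups overlapped, the probe set was too dim on average to be tested, and without the filter its log2 difference of -0.54 ± 0.31 had an adjusted p of 0.424.

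The other 24 beta probe sets were too dim to be tested with the filter. Pcdhb10 had the lowest log2 difference among them, -0.88, from 3.03 to 9.07 in wild type and 0.460 to 3.05 in depleted oocytes, with 1 array of 10 above the control level and an adjusted p of 0.0823 without the filter. At the other end stood Pcdhb2 at 0.71 and Pcdhb1 at 0.67, both above the control level on 1 depleted array and no wild type array, with adjusted p of 0.358 and 0.230 without the filter. The 28 beta log2 differences were negative for 15 probe sets and positive for 13, with a median of -0.04, against -0.03 over all probe sets. The sign of the beta median turned with the scaling, to 0.05 with arrays centred on their medians and 0.02 after quantile normalization, where the median of all probe sets was 0.06 and 0.01.

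In the alpha cluster none of the 6 probe sets was called changed, and only 1 was above the control level on all 10 arrays. It was 1420798_s_at, with 14 alpha symbols, and no other member of any cluster reached this. It gave 17.97, 11.1, 15.0, 15.4 and 21.1 on wild type arrays and 10.005, 14.2, 13.6, 14.4 and 8.95 on depleted arrays. The groups overlapped, with means of 16.1 ± 3.71 and 12.2 ± 2.56 and a log2 difference of -0.33 ± 0.20 (adjusted p = 0.344, limma). As the probe set is annotated with many alpha genes, a change in 1 promoter could be hidden in it.

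A second probe set with the same 14 symbols, 1424341_s_at, gave 8.60, 8.29, 13.8, 5.79 and 5.57 on wild type arrays and 5.00, 2.56, 3.89, 2.78 and 5.00 on depleted arrays. Every depleted array was below every wild type array, but the signal exceeded the control level on only 2 wild type arrays and 1 depleted array. Its log2 difference was -0.76 ± 0.28 and was not called (limma adjusted p = 0.0909, and 0.135 without the filter). Its mean log2 in depleted oocytes, 2.64, was under the filter's limit of 2.93, so it entered the filtered fit through its wild type signal. With the filter but without limma's intensity trend it was called, with an adjusted p of 0.0438. With signals raised to the control level the difference was -0.23. Over all 35 members, 3 (8.57%) had every depleted array below every wild type array, against 4.06% of all probe sets, and none had every depleted array above, against 2.95%.

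The remaining alpha probe sets were dim. 1425613_at, with 9 symbols, gave 2.47, 6.02, 7.09, 4.83 and 4.14 on wild type arrays and 4.40, 7.44, 4.07, 8.06 and 7.49 on depleted arrays. The groups overlapped, and the log2 difference was 0.25 ± 0.28 (adjusted p = 0.636). 1425017_at, also with 9 symbols, gave 5.86, 1.65, 2.57, 0.908 and 2.57 on wild type arrays and 1.92, 1.51, 3.15, 0.338 and 5.41 on depleted arrays, overlapping throughout with a log2 difference of -0.09. The last pair, 1427687_at and 1451769_s_at, were at -0.15 and -0.22 and between them exceeded the control level once. The median alpha difference was -0.19, with 5 probe sets negative and 1 positive. These probe sets share annotated genes and cannot be taken as independent.

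For the gamma cluster, Pcdhgc4 at 1438103_at gave 0.377, 0.226, 0.944, 0.386 and 0.476 on wild type arrays and 0.694, 0.720, 0.488, 3.89 and 0.306 on depleted arrays. All 10 values were under the control level, so no expression and no change could be read; the log2 difference of 0.25 turned to -0.02 when signals were raised to that level.

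The genes beside and between the clusters were set next to the members. In RefSeq order, the 8 protein-coding genes on each side and the further genes inside made 21, of which 18 had a probe set and 13 were tested. None rose and 1 fell, where 12.6% of all tested probe sets were called in either direction. The gene that fell was Diaph1, which encodes an actin-nucleating formin and follows the gamma cluster. It was at 1474 ± 62.0 in wild type and 1293 ± 78.7 in depleted oocytes, a log2 change of -0.19 ± 0.05 (adjusted p = 0.0220). Its other probe sets were at -0.38 and -0.11. The call was lost without any one of wild type replicates 3, 4 and 5 or depleted replicate 5 (adjusted p up to 0.0607), with arrays centred on their medians, without the trend, and with a covariate for the ratio of 3′ to 5′ signal. Zmat2, just before the alpha cluster, was at 829 and 804 (log2 difference -0.04, adjusted p = 0.720). Taf7, a subunit of the general transcription factor TFIID that lies between the beta and gamma clusters, was at 573 ± 70.9 and 722 ± 218 (0.29 ± 0.15, adjusted p = 0.235). The 13 tested neighbours had a median log2 difference of -0.03, against -0.02 over all tested probe sets.

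**Figure D3:**
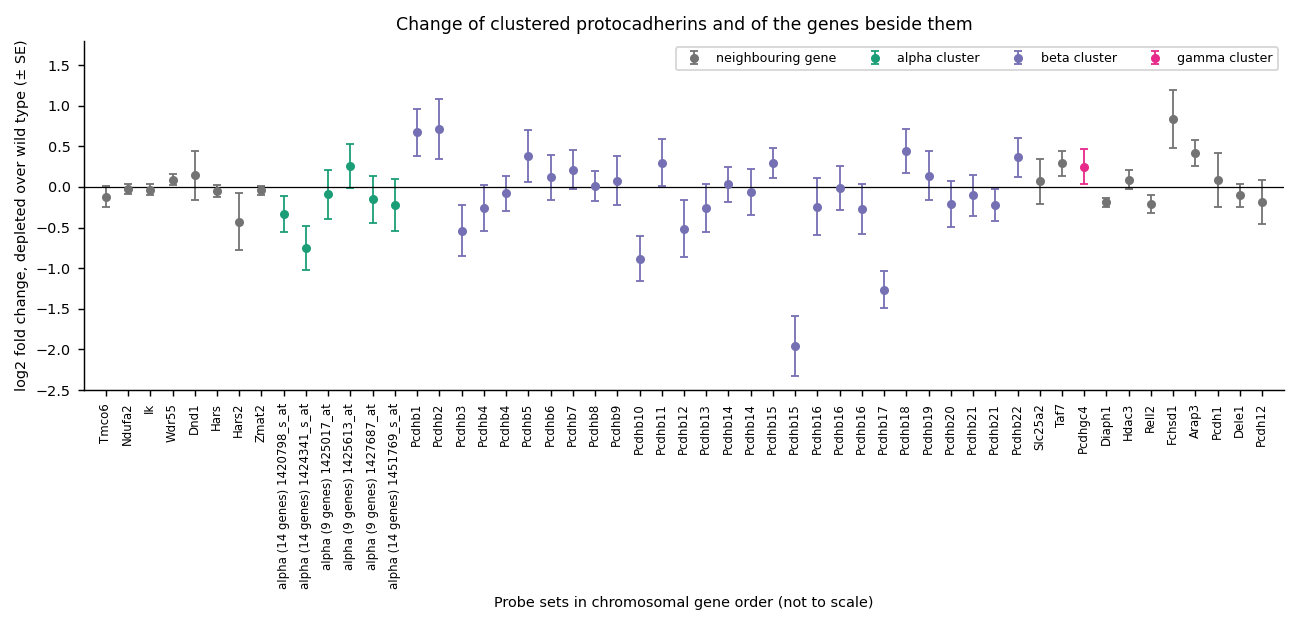
Log2 difference of depleted over wild type oocytes (± SE, fit without the filter on dim signal) for every clustered protocadherin probe set and for the genes beside and between the clusters, in RefSeq gene order and not to scale. Pcdhb15 at -1.96 and Pcdhb17 at -1.27 are the lowest points, and most other error bars reach or lie near 0.

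Genes listed as possible regulators of the clusters, called regulators here, were above the control level on all 10 arrays for 20 of 21. The exception was the cohesin-associated Pds5a, at 10.8 and 12.98. Their action on the clusters in oocytes was not tested. Of the 21 regulators, which include cohesin and its loader and release factors, DNA methyltransferases and the histone methyltransferase Setdb1, all were tested, 2 rose and 3 fell, with a median log2 difference of 0.03. Ctcf was 1 of the 3. Over all tested probe sets, 12.6% were called. List genes were read by their brightest probe sets, so this share is not matched to them in signal. Stag1 and Stag2, which are alternative subunits of cohesin, rose from 166 ± 9.43 to 217 ± 17.8 (log2 0.38 ± 0.08, adjusted p = 0.00331) and from 281 ± 10.4 to 342 ± 15.2 (0.28 ± 0.06, adjusted p = 0.00556), respectively. The core cohesin subunit Smc1a fell by 0.23 on the log2 scale (adjusted p = 0.0237), and so did the cohesin loader Nipbl by 0.22 (adjusted p = 0.0374). Each of these falls rests on 1 probe set, since the other tested probe sets were at -0.10 and 0.01 for Smc1a and at -0.15 to 0.02 for Nipbl. Those for Stag1 were at 0.04 to 0.43, and the other one for Stag2 was at 0.27. Both falls were lost without the intensity trend and with arrays centred on their medians, where 4 regulators were higher and 1 lower. Leaving out wild type replicate 2 or 4 or depleted replicate 1 or 4 ended the Smc1a call (adjusted p up to 0.0634), and leaving out any array other than wild type replicate 1 or depleted replicate 3 ended the Nipbl call (up to 0.0971), as did the fit without the filter and the 3′ to 5′ covariate.

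Of 18 genes for intracellular partners of the protocadherins, 17 were tested, with 2 higher, 2 lower and a median log2 difference of 0.02. The share called among all tested probe sets was 12.6%. Axin1, a scaffold of the Wnt pathway, rose from 572 ± 59.2 to 753 ± 46.4 (log2 0.40 ± 0.07, adjusted p = 0.00143), and Abi1, a subunit of the WAVE complex that drives actin branching, rose from 690 ± 49.7 to 869 ± 90.7 (0.33 ± 0.07, adjusted p = 0.00519). Cyfip2, another WAVE subunit, fell from 405 ± 13.2 to 305 ± 45.8 (-0.42 ± 0.09, adjusted p = 0.00350). Psen2, a catalytic subunit of the gamma-secretase that cleaves protocadherins, fell by 0.22 (adjusted p = 0.0368). Neither fall was called with arrays centred on their medians, and the Psen2 call was also lost without wild type replicate 1, 3 or 5 or depleted replicate 3, 4 or 5 (adjusted p up to 0.102), without the filter or the trend, and with the covariate.

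The protocadherins and cadherins outside the clusters numbered 23 genes, of which 13 were tested, 3 rose and 1 fell, with a median log2 difference of 0.01. Among all tested probe sets 12.6% were called, a share not matched to this list in signal. Pcdh19, a delta protocadherin of the X chromosome, had a brightest probe set that rose from 15.2 ± 5.22 to 36.4 ± 2.72 (log2 1.19 ± 0.19, adjusted p = 0.000447), while its other probe sets were at 1.14 and -0.38. N-cadherin, Cdh2, rose from 234 ± 12.2 to 330 ± 48.0 (0.48 ± 0.09, adjusted p = 0.00192). Fat3, a giant atypical cadherin, rose by 0.42 (adjusted p = 0.0409), and Pcdh9 fell by 0.21 on the log2 scale (adjusted p = 0.0269), its other probe set being at -0.11. Leaving out any array other than wild type replicate 3 or depleted replicate 5 ended the Fat3 call (adjusted p up to 0.0992), and so did the fits without the filter, with array weights, with the replicate numbers as a block, with the covariate and with signals raised to the control level. The Pcdh9 call was lost without wild type replicate 1, 3 or 4 or depleted replicate 1, 4 or 5 (adjusted p up to 0.0774) and without the trend, and with arrays centred on their medians 4 genes of this list were higher and none lower.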

How the data were processed

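Total RNA of 10 samples was amplified, biotin-labelled and hybridised to single-colour Affymetrix arrays. The deposited values are intensity signals, 1 per probe set, made by the authors with MAS5 per the submitters' processing notes; its version is not given in the sources used here. They are linear, and the mean trimmed by 2% at each end is 150.001 on every array. Signals were used as deposited. The 64 control probe sets were set aside, 2.47 (the 25th percentile of all values) was added before log2, and probe sets with a mean log2 under the 40th percentile (2.93) were not tested. Fold changes on this scale understate changes of dim genes. limma 3.58.1 in R 4.3.3 (lmFit, eBayes with intensity trend) compared 5 CTCF-depleted with 5 wild type arrays, with Benjamini-Hochberg adjustment over 27022 probe sets; calls are at an adjusted p under 0.05. The fit was also run on simulated data, drawn with normal noise for probe sets that passed the filter, so it does not cover the dimmer members. No pair of arrays held identical values.

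Gene names came from the platform annotation, which can be old; the RefSeq table of GRCm38.p6 gave gene order. A gene of a list was read by its probe set of highest mean log2 signal. Values on each array are given for called members, the 4 brightest of each cluster, shared probe sets above the control level on at least 5 arrays and C-type genes. Ctcf and, for each related list, up to 4 called genes with the smallest adjusted p are named with group means or log2 changes. Pcdhb10, Pcdhb2 and Pcdhb1, the second Pcdhb15 probe set, Pcdhb16, the neighbours Zmat2 and Taf7, Nipbl, Pds5a, Gja1, Kitl and the markers at background were named with their values in view. The members and lists were chosen with earlier results of these data known. Alternatives changed the offset, filter, scaling, variance model, weights, block, covariate, threshold and arrays. The number of arrays limits the precision.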

Additional observations from a re-analysis of the deposited data

Results flagged for a closer look

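A single array stood far from the other 4 of its group, by Dixon's test, in 4 of 22 groups of values checked (both Ctcf probe sets and the members described on each array); chance alone gives about 1 such group in 20. Depleted replicate 5 was the highest of its group at both Ctcf probe sets, at 61.1 with the nearest array at 14.2, and at 95.8 with the nearest at 29.3. At the Pcdhb15 probe set 1443421_s_at, wild type replicate 2 was the lowest of its group, at 11.5 with the nearest array at 20.1. Pcdhgc4 was highest in depleted replicate 4, at 3.89 with the nearest array at 0.720, which is under that array's control level of 6.88.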

How the results depend on the processing

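Across 23 alternatives, 2 to 3 members were called lower and 0 higher. Leaving out each array in turn gave 2 lower, with log2 changes of -1.33 to -1.21 for Pcdhb17 and -2.22 to -1.75 for Pcdhb15 (1443421_s_at); both were called under every alternative. The third member, alpha 1424341_s_at, was called without the intensity trend and at an adjusted p under 0.10. Members tested numbered 35 without a filter, 3 when signal above the control level on at least 5 arrays was required, and 5 to 6 without 1 array. Under that detection filter 2 beta members were left, with a median of -1.61, and no gamma member. The alpha median was 0.03 with the 3′ to 5′ covariate. Pcdhb6 was at -0.0024 without depleted replicate 4. Same-numbered arrays deviated together with correlations of 0.0024 to 0.051. Wild type replicates 3 and 5 each correlated best with the depleted array of their own number. Values this low cannot tell whether same-numbered arrays shared animals, which the labels do not say. With the replicate block 2 members were called lower and 0 higher, and 3581 probe sets in all against 3406. Signals near the control level limit what can be read of the other members.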
